A study of Mus musculus with 4 samples.

Results

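The CREB and ATF factors Creb1, Crem, Atf1, Atf2 and Atf4 were followed in mouse CA1, an output field of the hippocampus, after foot shock. All probe sets whose gene annotation names 1 of these 5 genes and no other were taken, which gave 8 probe sets for 4 genes out of 8251 genes named on the array. Creb1 had 3 probe sets, Crem 2, Atf2 2 and Atf4 1. The annotation that names Atf1 also names a pseudogene, so no value is given for Atf1. The animals were young male C57BL/6J mice, put in a context new to them 2 h beforehand and then given 3 foot shocks of 0.5 mA. Total RNA of CA1 was taken 1, 2, 4 or 6 h after the last shock, with 1 array per time and 4 arrays in all. Every sample carries the label shock alone, all 4 labels give a stay of 1 h in the chamber after the last shock, and the number of animals behind a sample is not stated. Unshocked mice were not analysed here, so each time is set against the other times. There are no replicates and hence no p-values, and precision is limited by having 1 array per time.

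CREB and ATF proteins are basic leucine zipper transcription factors that bind as dimers to the cyclic AMP response element (CRE), a short palindrome found in many activity-regulated promoters. In neurons, calcium and cyclic AMP activate kinases that phosphorylate CREB, which then recruits the coactivators CBP and p300. In the hippocampus this pathway is known for its part in long-lasting synaptic change and memory. Much of its control acts on the proteins: CREB and ATF2 by phosphorylation, and ATF4 by translation of its mRNA. An array reads the mRNA alone.

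The values are intensities, the brightness of a probe set on a linear scale, brought to a common trimmed mean on each array. Values below 100.6, the 40th percentile of all values, are called below the floor, where a probe set gives only an upper bound. A probe set's brightness depends on its oligonucleotides, so levels are compared between arrays and not between genes. Of the 32 values of the 8 probe sets, 18 lay above the floor. Of the 8 probe sets, 3 were above it on all 4 arrays (1 each of Crem, Atf2 and Atf4) and 5 were below it on at least 1.

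Crem, which encodes both activators and repressors of CRE-driven genes, had its lowest values at 6 h. Its brighter probe set read 264, 228, 233 and 177 at 1, 2, 4 and 6 h. Its dimmer probe set read 150, 148, 149 and 65.0, below the floor at the last time only. Both thus placed 6 h lowest, and they differed in the early hours, where the brighter was highest at 1 h and the dimmer was nearly level. Both are annotated to the same sequence record, so they are not independent readings of the gene. A short repressor, ICER, arises from a promoter inside Crem that cyclic AMP induces, and which Crem transcripts these probe sets read is not given in the sources used here.

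At 6 h the brighter probe set was 1.49-fold lower than at 1 h, a log2 difference of −0.57. Over all probe sets above the floor on both arrays, the robust SD of the log2 differences between 6 h and 1 h was 0.29. That SD takes in noise and any real change between the arrays, and it is not matched to the brightness of a probe set. Against 2 h the log2 difference at 6 h was −0.36, beside an SD of 0.32, and against 4 h it was −0.39, beside an SD of 0.26. Between the early times the log2 differences were −0.21 at 2 h against 1 h, −0.18 at 4 h against 1 h and 0.03 at 4 h against 2 h, each smaller than the SD of its pair. For the dimmer probe set the value at 6 h was at least 1.495-fold lower than at 1 h and at least 1.47-fold lower than at 2 h, bounds set by the floor.

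The 6 h array also carried transcripts of the choroid plexus, the epithelium next to the hippocampus that secretes cerebrospinal fluid. Of its 9 marker genes 6 were on the array and 4 had a mean above the floor, and all 4 were highest at 6 h. The summed intensity of the 6 was 784, 753, 1019 and 5856 from 1 to 6 h. Most of the last sum was Ttr, the transthyretin gene, which read 4482 at 6 h against 111 at 1 h, while Slc4a5 was below the floor on all 4 arrays and Aqp1 on 3 of 4. Oligodendrocyte markers had a median of 0.27 (log2) at 6 h relative to the mean of the other 3 arrays over 7 measured genes, and endothelial markers −0.29 over 5. The part of these cell types in the Crem values, and in the other 6 h values below, was not tested. In bulk RNA, fewer cells of a type and less RNA per cell cannot be told apart. The markers of CA1 pyramidal neurons on the array, 5 of 11 genes, summed to 4450, 4260, 5588 and 4830 from 1 to 6 h, with Neurod6, Wfs1, Pou3f1 and Neurod2 above the floor on each array. Camk2a, a kinase gene abundant in these neurons, was below the floor on 3 of 4 arrays.

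Atf2, which dimerises with Jun proteins and is activated by stress kinases, was nearly level. Its brighter probe set read 1955, 2067, 2065 and 2363 at 1, 2, 4 and 6 h. Its highest value, at 6 h, was 1.21-fold above that at 1 h, a log2 difference of 0.27 beside an SD of 0.29 for that pair. Against 2 h and 4 h the log2 difference at 6 h was 0.19 each, beside SDs of 0.32 and 0.26. The other Atf2 probe set was below the floor on all 4 arrays, at 28.8, 45.7, 36.0 and 9.99 from 1 to 6 h, and gives no course.

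Atf4, the factor of the integrated stress response that raises amino acid supply genes, was also nearly level. Its single probe set read 1791, 2117, 1955 and 1861 at 1, 2, 4 and 6 h. The 2 h value was 1.18-fold above that at 1 h, a log2 difference of 0.24 beside an SD of 0.29, and at 6 h the value was 1.04-fold above that at 1 h. The order of the 4 times was thus 2 h, 4 h, 6 h and 1 h, and no neighbours in it differed by more than the SD of their pair.

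Creb1, the founding member and the one most studied in memory, could not be followed. One probe set read 15.1, 108, 24.7 and 17.6 at 1, 2, 4 and 6 h. Another read 111, 38.9, 108 and 63.9, and the last read 65.7, 23.4, 35.4 and 31.2. All 3 are annotated to the same sequence record, and values below the floor have no order among them. Of the 12 values 3 were above the floor, by at most 1.10-fold: the first probe set at 2 h, and the next at 1 h and 4 h. These readings set no course for Creb1, and a dim probe set does not show that a transcript is scarce.

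**Figure D1:**
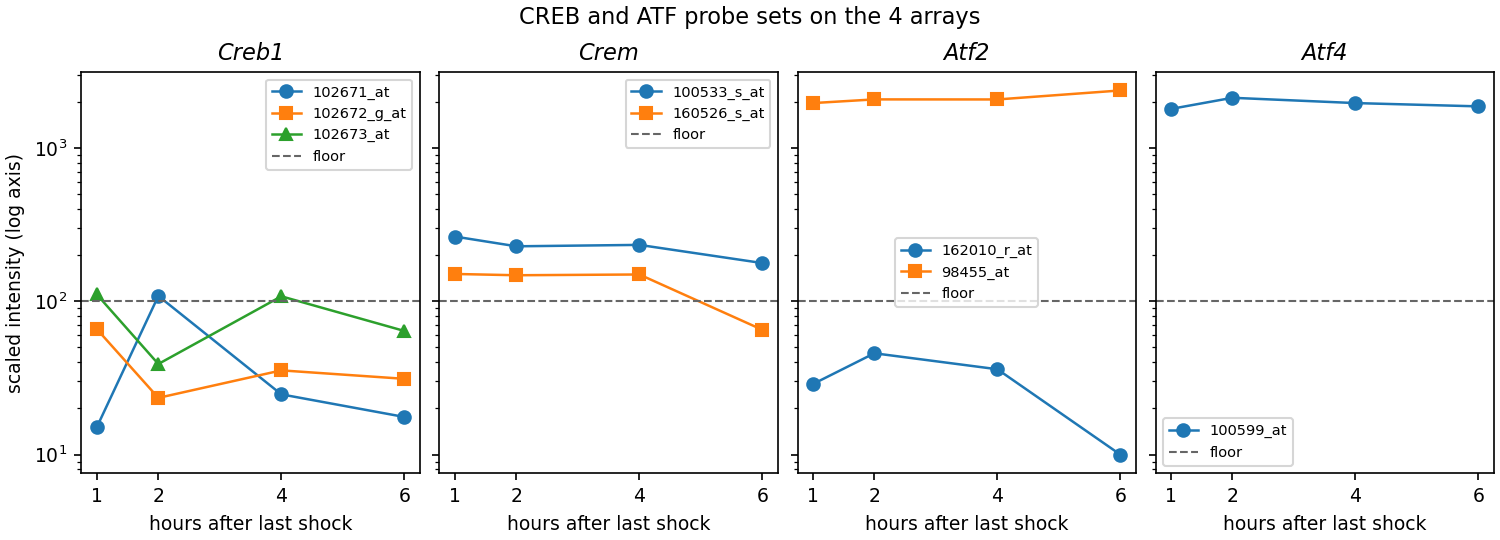
Scaled intensity (log axis) of the 8 probe sets of Creb1, Crem, Atf2 and Atf4 against hours after the last shock, 1 point per array, with the floor of 100.6 as a dashed line. Atf4 and the brighter Atf2 probe set stay between 1791 and 2363, the other Atf2 probe set lies under the floor on all 4 arrays, both Crem probe sets are lowest at 6 h, and most Creb1 points lie under the floor.

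The spans of the CREB and ATF probe sets were set beside those of the whole array. Of the 3 above the floor on all 4 arrays, 0 had a highest value at least 1.5-fold over the lowest, against 27.9% of 6448 probe sets, and a count of 0 of 3 lies near that share. The median span over those probe sets was 1.32-fold. Crem, at 1.49-fold, lay just inside the limit, and 71.1% of probe sets had a smaller span. The shares were 27.98% for Atf2 and 22.4% for Atf4.

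Between pairs of arrays, 0 member probe sets above the floor on both differed by at least 1.5-fold, in 6 pairs with 3 to 5 members each. Over all probe sets the shares were 10.4% for 2 h against 1 h, 8.75% for 4 h against 1 h, 9.6% for 6 h against 1 h, 11.4% for 4 h against 2 h, 11.7% for 6 h against 2 h and 8.09% for 6 h against 4 h. With 3 to 5 members a pair, counts of 0 lie near these shares. At no time did 1 of the 3 members stand 1.5-fold above, or below, each other array, where over all probe sets 0.574%, 1.18%, 0.202% and 0.341% stood above from 1 to 6 h, and 0.931%, 1.12%, 1.01% and 1.16% stood below.

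**Figure D2:**
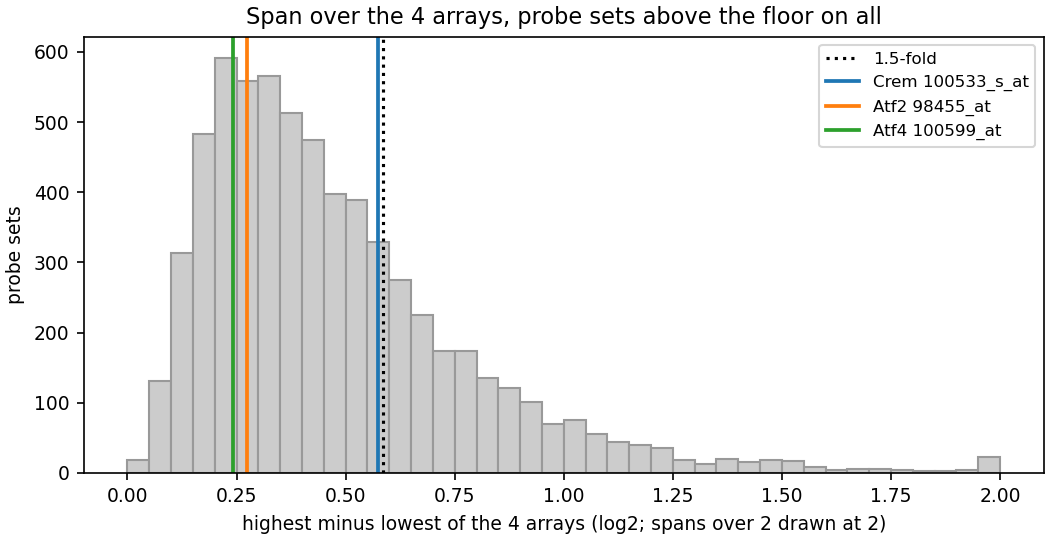
Number of probe sets by span, the highest minus the lowest of the 4 arrays in log2, for the 6448 above the floor on all 4. Coloured lines mark Crem at 0.57, Atf2 at 0.27 and Atf4 at 0.24, and the dotted line marks 1.5-fold.

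The genes whose courses were most like each member were found by the root mean square difference of log2 values centred over the 4 arrays, among 5020 genes. For Crem they were Mafg, at 0.022, Mrps22, at 0.025, and Ndufb7, at 0.028. Mafg read 447, 397, 392 and 309 from 1 to 6 h. For Atf2 they were Tpgs2, Tsc22d4 and Mlf2, at 0.012, 0.015 and 0.016, and for Atf4 they were Mff, Atp5g1 and Kpnb1, at 0.0067, 0.0073 and 0.012. Within 0.1 lay 143 genes for Crem, 699 for Atf2 and 789 for Atf4, so over 4 arrays such likeness is common.

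Other CREB and ATF relatives on the array numbered 11 of 20 listed, 10 of them with a mean above the floor. Atf5, an ATF4-related factor, read 246, 136, 247 and 220 from 1 to 6 h, lowest at 2 h. Ddit3, the stress factor CHOP, read 344, 232, 321 and 226. Atf6, a sensor of unfolded protein in the endoplasmic reticulum, read 216, 221, 273 and 187. Atf5 was the only relative below the mean of the other arrays by at least 1.5-fold at 2 h, where 3.95% of 5674 measured genes were, and no relative was above it by as much. Relative to the mean of the other 3 arrays the list had medians of −0.06, 0.04, 0.03 and −0.12 at 1, 2, 4 and 6 h, beside 0.01, 0.02, −0.00 and −0.01 over all measured genes. The 2 h sign changed in 3 of 11 alternative settings and the 6 h sign in 2, so no direction is given.

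Atf3, an activity- and stress-induced relative, had 3 probe sets that did not share a course. One read 82.0, 116, 157 and 97.5 from 1 to 6 h, and another read 199, 74.7, 37.6 and 30.4. The third was below the floor on all 4 arrays. The first of these was highest at 4 h and the next at 1 h, so no course is given for the gene. Nfil3, a repressor with a related zipper, read 137, 146, 46.1 and 102 on its brighter probe set and 128, 126, 105 and 49.2 on the other, which placed the lowest value at 4 h and at 6 h. Crebrf, a regulator that promotes the loss of CREB3 proteins, read 84.6, 171, 118 and 140.

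The coactivators on the array numbered 3 of 9. Crebbp, which encodes CBP, read 1010, 1049, 1437 and 1230 from 1 to 6 h, highest at 4 h. Fhl2, a LIM protein that binds CREB and CREM, was higher at each later time, at 724, 797, 881 and 989. Cited2, which competes for CBP and p300, read 582, 579, 537 and 563.

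Among the kinases that act on CREB, listed with regulatory subunits of protein kinase A, 12 of 25 were on the array and 7 were measured. Prkaca, a catalytic subunit of protein kinase A, read 1552, 1939, 1676 and 2237 from 1 to 6 h, while Prkacb, its sister, read 4205, 4385, 4205 and 3805. Prkaca was highest at 6 h, by a log2 difference of 0.53 over 1 h, beside an SD of 0.29. Prkacb was lowest at 6 h, but only by 0.20 under its highest value at 2 h, beside an SD of 0.32. No contrast between the 2 catalytic subunits is thus drawn. Prkar1b, a regulatory subunit, read 5660, 5780, 5361 and 6612, and its other probe set read 1105, 632, 985 and 812. Camk4, the nuclear calmodulin kinase that phosphorylates CREB, was below the floor except at 2 h, at 124. At 2 h and 6 h 0 of the 7 measured genes of this list, Prkar1a and Prkar1b among them, were 1.5-fold from the mean of the other arrays. Of measured genes 5.99% were above it and 3.95% below it by as much at 2 h, and 2.73% above and 4.37% below at 6 h, so counts of 0 lie near these shares. The medians of the list were 0.11 at 2 h and −0.06 at 6 h, and the 6 h sign changed in 2 of 11 alternative settings.

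Genes that restrain CREB signalling, listed with regulators of its phosphatases, numbered 12 of 21 on the array, all measured. Among them is Ppp1r1a, which encodes an inhibitor of protein phosphatase 1 and so is not itself a restraining gene. Pde4b, a phosphodiesterase that degrades cyclic AMP, read 260, 195, 167 and 191 from 1 to 6 h. Pde1b, a calmodulin-dependent phosphodiesterase, read 665, 793, 575 and 517. Ppp2ca, the catalytic subunit of protein phosphatase 2A, read 343, 384, 467 and 445, and Ppp1cc, of protein phosphatase 1, read 1507, 1992, 1787 and 1855. The list had medians of −0.10, −0.05, 0.07 and 0.01 from 1 to 6 h, and the 2 h sign changed in 1 of 11 alternative settings. At 2 h and 6 h 0 of 12 were 1.5-fold from the mean of the other arrays, which lies near the shares just given for the kinase list.

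Known target genes of CREB were listed under 38 symbols, with Cyr61 and Ccn1 naming the same gene. Of these symbols 31 were on the array and 30 were measured. By their median they lay highest at 2 h and lowest at 6 h. Relative to the other 3 arrays the list had medians of 0.05, 0.39, −0.07 and −0.32 at 1, 2, 4 and 6 h. At 2 h 22 of 30 were above the mean of the other arrays, where 52.4% of measured genes were, and 6 by at least 1.5-fold, where 5.99% were. At 6 h 25 of 30 were below it, where 51.1% of measured genes were, and 6 by at least 1.5-fold, where 4.37% were. Highest at 2 h were 17 of 30, against 29.2% of measured genes, and lowest at 6 h 17 of 30, against 24.9%. At 6 h against 2 h directly, 14 of 30 were lower by at least 1.5-fold, where 8.6% of measured genes were. The list, which holds many immediate early genes, was chosen with earlier results of these data known. Each time is also 1 array, so these counts describe the list on these arrays and are no test of it. Crem, itself a CREB target through ICER, was also lowest at 6 h. At 2 h against 1 h its log2 difference was −0.21 on the brighter probe set and −0.03 on the dimmer. Both were smaller than the SD of 0.29 for that pair. The list median was 0.13, with 20 of 30 targets higher and 10 lower, so no contrast with the list is drawn.

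Several immediate early genes were highest at 2 h. Fos, a subunit of AP-1, read 310, 607, 161 and 134 from 1 to 6 h. Egr2, a zinc finger factor, read 144, 328, 32.5 and 122, below the floor at 4 h, and Nr4a1, a nuclear receptor gene, read 604, 997, 594 and 534. Tiparp, a poly(ADP-ribose) polymerase, read 162, 365, 177 and 110. Egr1, a zinc finger factor used as an activity marker, read 1277, 2195, 1737 and 1299. Junb, another AP-1 subunit, read 491, 565, 483 and 331 on its brighter probe set and 97.7, 319, 189 and 227 on the other, both highest at 2 h, with the lowest at 6 h and at 1 h. Other targets were highest at other times. Nr4a2, a nuclear receptor gene, was highest at 1 h on both probe sets, at 805, 713, 483 and 388 and at 393, 303, 270 and 217. Inhba, an activin subunit gene, was also highest at 1 h, at 392, 235, 198 and 111. Bdnf, a neurotrophin gene, was highest at 4 h, at 3226, 3311, 3808 and 3059. Per2, a clock gene, was highest at 4 h, at 120, 173, 198 and 103, and Sst, which encodes somatostatin, was highest at 6 h, at 9773, 11128, 10012 and 11934. The highest values of Bdnf, Per2 and Sst exceeded those at 2 h by less than the SD of the pair, 0.31 or 0.32 (log2). Between 1 h and 2 h the brighter probe sets of Nr4a2 and Junb also differed by less than the SD, 0.29. No distinct course is thus drawn for these genes from those values. On the 2 h array the ratio of the 3′ to the 5′ probe set of actin, a sign of RNA integrity, was 2.70, and on the rest it lay between 1.74 and 1.84. The Gapdh ratio was 4.82 there and 3.24 to 3.98 on the rest. The part of these ratios in the list's values was not tested. Without the 6 h array the 2 h median was 0.26, and without the 2 h array the 6 h median was −0.19.

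**Figure D3:**
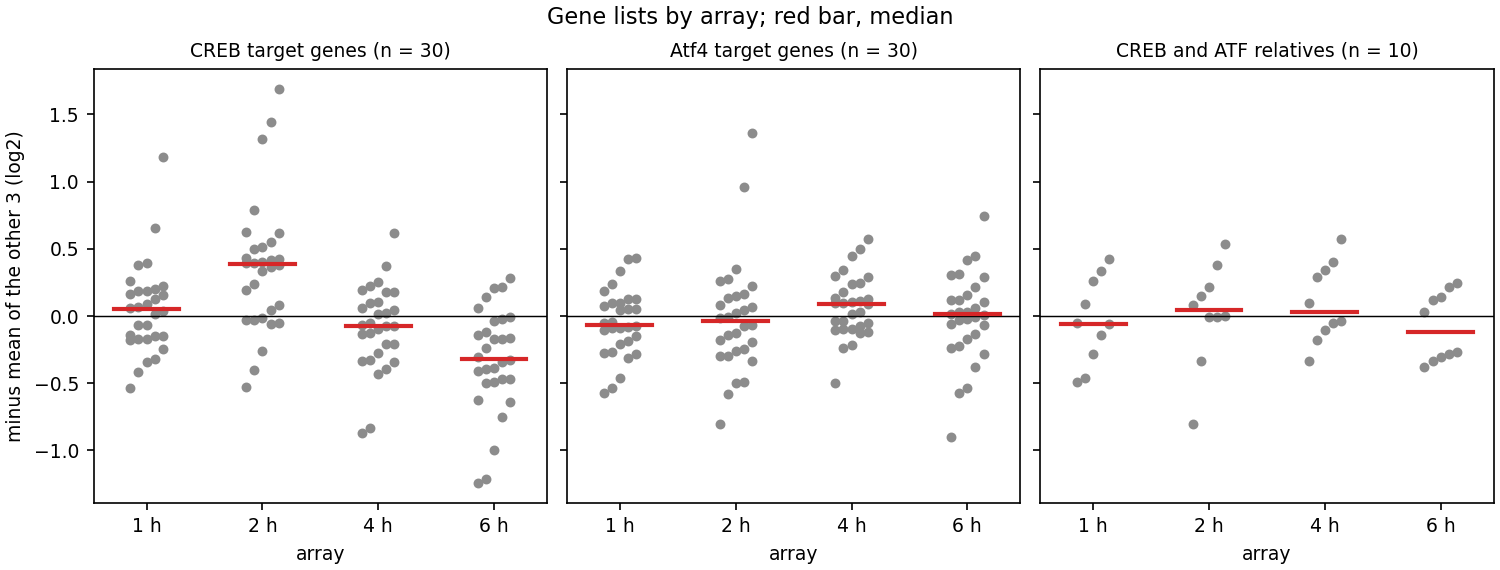
Each measured gene's log2 value on an array minus the mean of the other 3 arrays, for CREB targets (30 genes), Atf4 targets (30) and CREB and ATF relatives (10), with the median as a red bar. CREB targets have medians of 0.39 at 2 h and −0.32 at 6 h, and the other lists stay between −0.12 and 0.09. The lists share genes: Atf3, Atf5, Ddit3, Cebpb and Cebpg are both relatives and Atf4 targets. Nfil3 is both a relative and a CREB target, and Ppp1r15a is in both target lists.

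The promoters of these targets were searched for the element that CREB binds, where the table held them. Sequences are from RefSeq, build GRCm38.p6, from 250 bases before to 50 after each annotated start, and are shown 5′ to 3′ on the gene's strand. The full CRE, TGACGTCA, and its core, TGACG, were searched on both strands, and each full site holds the core on both. Shown are the full site of Sst and the core sites nearest the start in early genes described above, in capitals.
Sst, chr16:23890864-23890913, minus strand: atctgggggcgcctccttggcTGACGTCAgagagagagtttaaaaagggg
Fos, chr12:85473803-85473849, plus strand: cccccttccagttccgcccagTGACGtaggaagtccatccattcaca
Nr4a1, chr15:101266785-101266831, plus strand: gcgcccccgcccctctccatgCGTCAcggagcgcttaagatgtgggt
Nr4a2, chr2:57124089-57124135, minus strand: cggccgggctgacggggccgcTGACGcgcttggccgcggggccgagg
Egr2, chr10:67537793-67537839, plus strand: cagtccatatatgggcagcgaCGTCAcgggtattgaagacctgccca

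The Sst site began 48 bases before the start, and the core sites of Fos and Nr4a1 began 66 and 40 bases before it. Of 26 measured targets with a promoter in the table, 20 held the core, against 23.0% of 27025 genes, and 6 held the full site, against 2.03%. These genes are listed because CREB is known to act on them, so the counts describe the list. The 6 targets with the full site (Btg2, Dusp1, Pcsk1, Ppp1r15a, Scg2 and Sst) had a median of 0.03 at 2 h and −0.04 at 6 h relative to the other arrays. The 20 without it had medians of 0.41 and −0.40 at those times. With the core the medians were 0.39 and −0.27 over 20 genes, and without it 0.40 and −0.44 over 6. Lacking the full site means only that its letters are not in the windows searched, and Fos holds the core without it. With 6 genes in the smaller group of each split, no contrast is drawn.

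The promoter of Atf4 held the core at 2 places, 12 bases before the start and 40 after it, and no full site. It is shown whole because, of the windows of the members with values that were searched (Creb1, Atf2 and Atf4), it alone held the core. The window of Atf1, which has no value here, held 1 core site.
Atf4, chr15:80254934-80255233, plus strand: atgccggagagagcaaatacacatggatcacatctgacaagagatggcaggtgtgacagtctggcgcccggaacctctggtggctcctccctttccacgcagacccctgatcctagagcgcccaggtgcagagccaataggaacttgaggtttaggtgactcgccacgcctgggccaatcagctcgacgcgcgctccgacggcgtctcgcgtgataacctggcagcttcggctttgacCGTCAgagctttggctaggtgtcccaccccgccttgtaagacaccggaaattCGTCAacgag

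No window of Crem was searched. In the windows of Creb1, at chr1:64532554-64532853, and Atf2, at chr2:73892590-73892889, 0 full or core sites were found on either strand. That says only that the letters are not in these windows.

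Known target genes of ATF4 were listed under 47 symbols, some of them older and newer names of the same gene, such as Sars and Sars1. Of these symbols 36 were on the array and 30 were measured. The list had medians of −0.06, −0.04, 0.09 and 0.01 relative to the other arrays from 1 to 6 h. At 2 h 13 of 30 were above the mean of the other arrays, where 52.4% of measured genes were. Asns, the asparagine synthetase, read 3057, 2828, 3350 and 4104, highest at 6 h, while its other probe set read 186, 213, 202 and 199. Xpot, a tRNA exporter, read 980, 767, 1171 and 1305. Sars, a seryl-tRNA synthetase, read 765, 665, 714 and 383 from 1 to 6 h. Trib3, a pseudokinase, read 219 at 2 h and 141 at 4 h and was under the floor at both ends, and Nupr1, a stress-induced chromatin protein, read 275 and 121 at 2 h and 4 h and was also under it there. Trib3 and Nupr1 were thus highest at 2 h, while Atf5, Xpot and the brighter Asns probe set were lowest there and the other Asns probe set was highest there. Atf4 itself was highest at 2 h, but only by 0.24 (log2) over 1 h, beside an SD of 0.29, so no likeness of course is drawn. Of the 30 measured targets 9 were highest at 2 h, where 29.2% of measured genes were, and 12 were lowest there, where 25.9% were. The sign of the list median changed in 1 of 11 alternative settings at 2 h and in 3 at 6 h, so no direction is given.

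**Figure D4:**
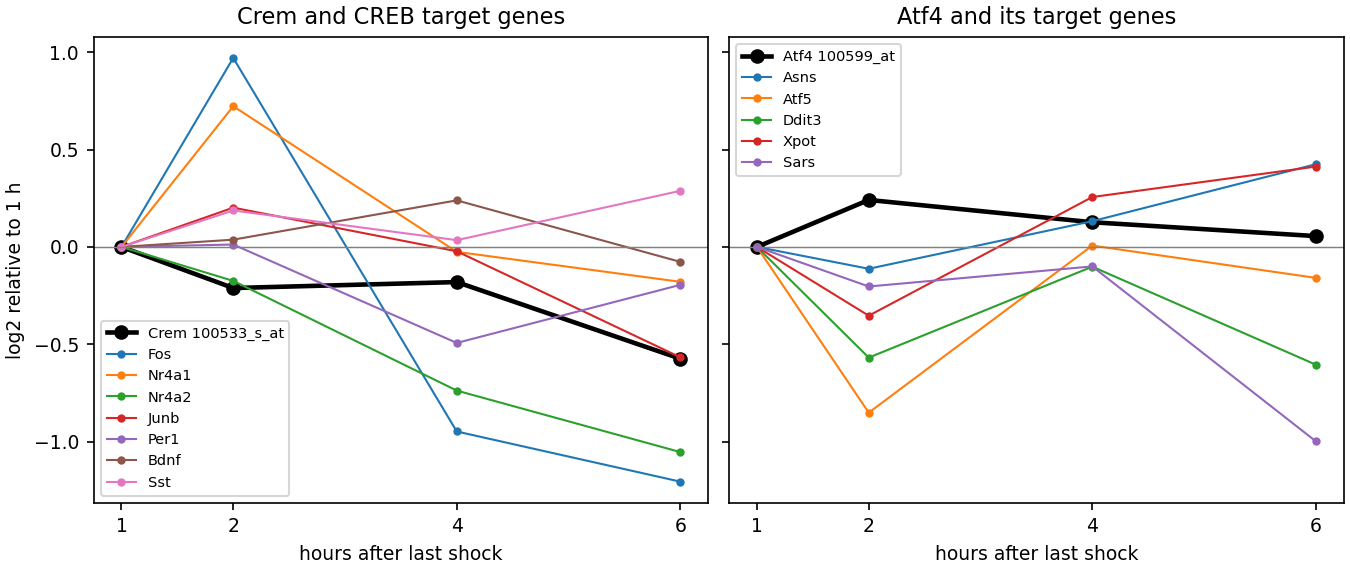
Log2 intensity relative to 1 h against hours after the last shock for Crem with 7 CREB targets, and for Atf4 with 5 of its targets, values below the floor set to it. Each gene is drawn by its brightest probe set. Crem ends at −0.57, near Junb, whose other probe set was lowest at 1 h and is not drawn. Atf4 stays within 0.24 of its 1 h value while Atf5 lies lowest at 2 h and Sars at 6 h. Other Atf4 targets, Trib3 and Nupr1 among them, are left out. Of the 30 measured, 9 were highest at 2 h and 12 were lowest there.

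The element bound by ATF4 with C/EBP factors, the CARE, was searched as TGATGNAAN on both strands. It was found in 8 of 25 measured targets with a promoter, against 4.5% of genes. These genes are listed because ATF4 is known to act on them, so this count too describes the list. The CARE is shown for Asns, Nupr1 and Trib3, described above, in capitals. In Nupr1 and Trib3 it lies on the opposite strand.
Asns, chr6:7693203-7693253, minus strand: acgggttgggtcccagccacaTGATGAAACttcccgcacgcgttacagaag
Nupr1, chr7:126625552-126625602, minus strand: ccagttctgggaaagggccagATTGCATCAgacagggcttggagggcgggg
Trib3, chr2:152344018-152344068, minus strand: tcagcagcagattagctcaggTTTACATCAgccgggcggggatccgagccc

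Upstream of ATF4, the kinases that phosphorylate eIF2α were listed with other genes of that step, some of which oppose them. Of these 12 genes 9 were on the array, 8 of them measured. Eif2ak1, the haem-regulated kinase, read 520, 546, 267 and 424 from 1 to 6 h, and at 4 h it was the 1 member at least 1.5-fold below the mean of the other arrays, where 3.82% of measured genes were. Eif2ak3, the endoplasmic reticulum kinase PERK, read 136, 116, 177 and 156, and Eif2ak4, the amino acid sensor GCN2, read 158, 159, 116 and 100.6, at the floor at 6 h. Ppp1r15b, which restores eIF2α by dephosphorylation, read 557, 594, 721 and 692. The list had medians of 0.14, 0.13, −0.18 and −0.05 from 1 to 6 h, and the 6 h sign changed in 3 of 11 alternative settings. Because Ppp1r15b, for example, acts against the kinases, these medians mix opposing genes and give no direction for the step.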

How the data were processed

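The authors deposited 12488 linear intensity values per Affymetrix array, 1 per probe set. The software behind them is not given in the sources used here. The trimmed mean of the deposited values, with 2% off each end, was 500.3 on each array. Here each array was scaled to a common trimmed mean over 12422 probe sets other than 66 controls, with factors from 0.999 to 1.001, and values below the 40th percentile, 100.6, were set to that floor before log2 was taken. Probe sets were named from the platform annotation, 10833 with 1 symbol and 396 with several, which were left unnamed. In lists a gene was represented by its brightest probe set, and a gene was measured when its mean lay above the floor. Members, lists and limits were chosen with earlier results of these data known. The genes named were the members, up to 6 measured genes of each list with the largest span, a fixed set (Fos, Junb, Egr1, Nr4a1, Nr4a2, Per1, Bdnf, Sst, Crebbp, Camk4, Prkaca, Prkacb, Atf3, Ddit3 and Asns) and the 3 most alike. The text gives some of these. Genes holding the full CRE are named by that count. No test of significance was run and no trend over the hours was fitted. The steps were tested on simulated arrays. The tools were pandas 2.3.3, NumPy 2.4.6 and matplotlib 3.10.9 under Python 3.11.15.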

Additional observations from a re-analysis of the deposited data

How the results depend on the processing

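Alternatives were the values as deposited, a common median, quantile normalization, other floors, a 2-fold limit, other choices of probe set or summary, and each array left out; leaving out arrays for the spans and pair differences was chosen after seeing the data. The choices of probe set or summary were run for the lists alone. The counts of CREB and ATF probe sets past the limit were 0 in each of the others except with the floor at the 20th percentile, 30.5, where 2 spans, 10 pair differences and 2 probe sets apart at 1 time passed. These came from 2 Creb1 probe sets and the dimmer Crem probe set, whose 6 h value then differed by −1.21 (log2) from that at 1 h. With the floor at the 60th percentile, 268, no Creb1 or Crem value was left. Without the 6 h array the span of the brighter Crem probe set was 0.21 and that of the dimmer 0.03. Directions of the CREB target medians were kept in each of 11 settings. At 2 h the median was 0.31 with a common median, 0.33 with quantile normalization, 0.34 with the 60th percentile floor or the mean over probe sets, and 0.26 to 0.44 with an array left out. At 6 h it was −0.24, −0.27 and −0.17 under the first 3 of these, −0.24 with the 20th percentile floor or plain probe sets, and −0.40 to −0.19 with an array left out. The Atf4 target median at 2 h was −0.12 with a common median, −0.10 with quantile normalization or the 60th percentile floor, 0.043 with the 20th and −0.11 to −0.028 with an array left out, and at 6 h 0.086 with a common median. For the relatives at 6 h it was 0.028 with the 20th percentile floor or the mean over probe sets and −0.21 with the 60th, and at 2 h −0.019 to 0.17 with an array left out. The list of restraining genes and phosphatase regulators at 2 h had −0.13 with a common median. With an array left out the coactivators at 6 h had 0.013 to 0.26 and the kinase list at 2 h 0.0072 to 0.069. The cause was not tested. A common median moved the median of all probe sets by 0.12 at 6 h against 2 h. No paired analysis was possible because each time has 1 array.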
